A study of Homo sapiens with 6 samples.

Results

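The genes described here are the lipid phosphatases of the PLPP family with receptors and kinases of lysophospholipid signalling in HCT-8, an established line of human colon cancer cells. The list named 10 genes (PLPP1, PLPP2, PLPP3, PLPP5, PLPP6, LPAR1, LPAR2, S1PR2, SPHK1 and SPHK2), and 8 of them had a feature in the annotation used, of 14884 genes tested. LPAR2 and SPHK2 were not paired with a feature there and were not analysed here. PLPP2 had been selected on its difference between the groups of arrays, and the other genes were chosen by their family and pathway with that contrast already known. Differences of the 8 genes are therefore given as a description, with their errors and no p-value. Where calls among them are counted, they follow that choice and are no support for a difference.

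RNA was measured on 6 Affymetrix arrays. The TRIB3-shRNA label was on 3 of them and the Control-shRNA label on the other 3. Cells had received a plasmid that expresses a short hairpin RNA (shRNA), either against TRIB3, the gene of a Tribbles pseudokinase, or a control hairpin, and hygromycin was applied from 24 hours later for 14 days. The resistant cells were passaged under the drug and used as uncloned pools, so all 6 arrays share the transfection, the drug and the parental line. The labels do not say whether replicate numbers stand for separate cultures or whether all 3 arrays of a group carry the same hairpin. The p-values thus measure the spread of these samples alone, and that spread may be technical.

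Lysophosphatidic acid and sphingosine 1-phosphate are small lipids that act outside the cell on G protein-coupled receptors of the LPAR and S1PR families. Sphingosine kinases make sphingosine 1-phosphate inside the cell. PLPP1, PLPP2 and PLPP3 are integral membrane enzymes whose catalytic sites face the outside or the lumen of organelles, where they remove the phosphate from these lipids, from phosphatidic acid and from ceramide 1-phosphate. Lysophosphatidic acid is known as a growth and motility signal for colon cancer cells.

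The targeted gene went against the labels. TRIB3 read 8.43, 8.48 and 8.27 (log2 RMA signal) on the arrays labelled TRIB3-shRNA and 7.37, 7.14 and 7.48 on the control arrays, so it was higher where the hairpin should lower it. Whether its feature covers the hairpin's target was not analysed here. Whether labels were exchanged, which would turn every sign below, was not tested. Every direction below is that of the arrays labelled TRIB3-shRNA against the control arrays and rests on those labels. Of 9 measured epithelial and colon markers, 0 lay below the 25th percentile on all 6 arrays, and 2 rose (CDX1 and TSPAN8), or 22.2% against 9.64% of all genes called. At an unadjusted p of 0.05 in limma, 4 were higher and 1 was lower, beside 1887 higher and 2396 lower of all 14884 genes. VIL1, of the microvilli, differed by -0.44 without overlap (limma adjusted p = 0.0631). The mean signal of the 9 ran from 8.61 to 8.69 on the arrays labelled TRIB3-shRNA and from 8.34 to 8.54 on the control arrays, and their part in the differences below was not tested. CDH1 was not analysed here. Among markers of other cell types, 2 of 4 measured for fibroblasts and smooth muscle (DCN and LUM), 1 of 2 for blood cells (CD14) and 0 of 3 for endothelium lay below the 25th percentile on all 6 arrays. The endothelial genes were still dim. PECAM1 and KDR lay below that percentile on 5 arrays and VWF on 2, and all 3 lay below the median of every array. DES, at 6.67 to 7.18, and CD68, at 7.74 to 8.18, lay above the median of every array. In these 3 lists 0 genes passed limma's test, also at an unadjusted p of 0.05.

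PLPP2 had the widest separation of the set and lay 9th from the top of all 14884 differences. Its signal was 10.05, 10.01 and 9.76 on the arrays labelled TRIB3-shRNA and 7.73, 7.80 and 7.86 on the control arrays. All 3 arrays of the first group lay far above all 3 of the other, and the lowest value of the first group was that of replicate 3. The group means were 9.94 ± 0.16 (SD, n = 3) and 7.80 ± 0.07 (SD, n = 3). PLPP2 thus differed by 2.14 on the log2 scale (SE 0.13, 95% interval 1.84 to 2.44), or 4.41-fold. PLPP2 encodes LPP2, a phosphatase of the plasma membrane and of endosomes that has been tied to entry into S phase. Across the 16 other ways of processing that were run the difference stayed between 2.05 and 2.26.

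PLPP1 differed in the opposite direction. This gene encodes LPP1, a phosphatase with overlapping substrates that is found in many tissues. It read 7.54, 7.46 and 7.35 on the arrays labelled TRIB3-shRNA and 8.04, 8.05 and 7.95 on the control arrays, with no overlap. The means were 7.45 ± 0.09 (SD, n = 3) and 8.02 ± 0.05 (SD, n = 3). PLPP1 thus differed by -0.57 on the log2 scale (SE 0.12, 95% interval -0.84 to -0.29), 1.48-fold lower.

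PLPP3 encodes LPP3, the member best known from blood vessel development. Its control arrays read 5.63, 5.64 and 5.60, and the arrays labelled TRIB3-shRNA spread around them at 5.59, 5.27 and 5.77. The groups overlapped, and the difference was -0.08 (SE 0.15, 95% interval -0.42 to 0.26). The sign was not stable to scaling, at 0.03 with arrays centred on the 75th percentile.

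**Figure D1:**
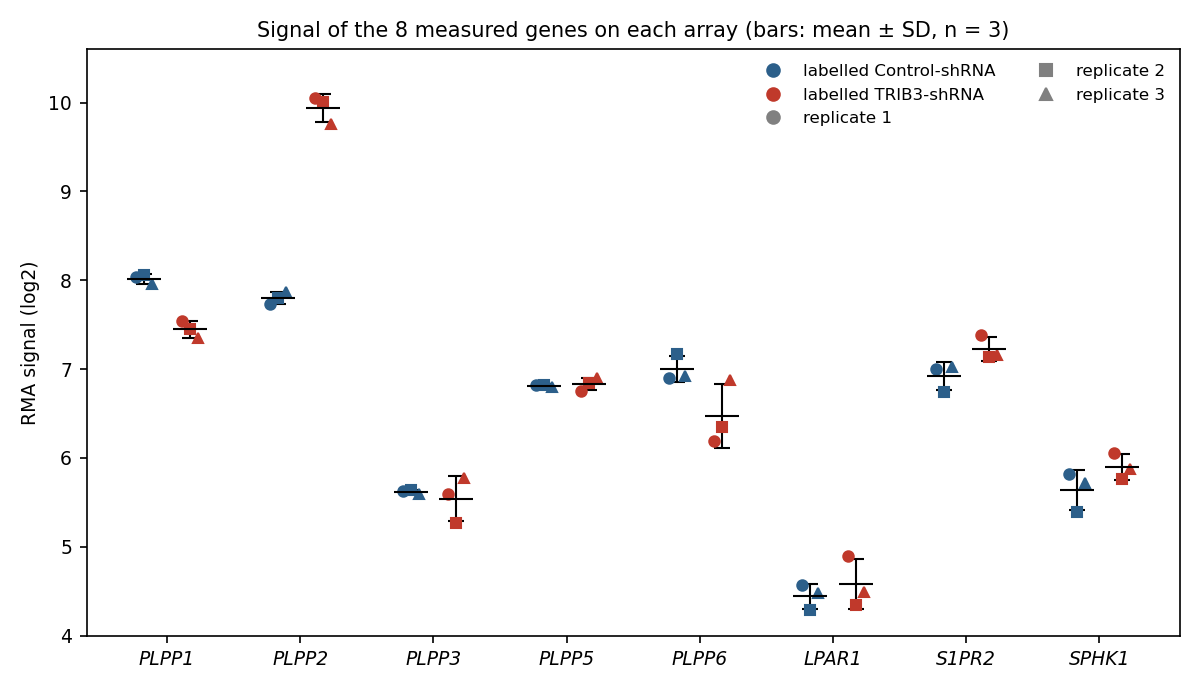
Log2 RMA signal of the 8 measured genes on each array, blue for arrays labelled Control-shRNA and red for arrays labelled TRIB3-shRNA, with bars for mean ± SD (n = 3) and marker shapes for replicate numbers. PLPP2 lies near 7.80 in the control arrays and 9.94 in the others, PLPP1 and PLPP6 lie lower in the arrays labelled TRIB3-shRNA, and heights of different genes cannot be compared because probes differ.

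The other measured phosphatases of the set have substrates of their own. PLPP6 acts on diphosphates of isoprenoids such as presqualene diphosphate. It read 6.19, 6.35 and 6.88 on the arrays labelled TRIB3-shRNA and 6.90, 7.17 and 6.92 on the control arrays. The groups did not overlap, but replicate 3 of the first group came within a small margin of the control arrays. The difference was -0.53 (SE 0.19, 95% interval -0.95 to -0.10), and the SD of the arrays labelled TRIB3-shRNA, 0.36, was the widest of any group in the set. Without TRIB3-shRNA replicate 3 the difference was -0.73. PLPP5, which can act on diacylglycerol pyrophosphate, was the most even gene of the set. It read 6.76, 6.85 and 6.90 against 6.83, 6.82 and 6.79, a difference of 0.02 (SE 0.12, 95% interval -0.24 to 0.29).

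The receptors and the kinase differed less than PLPP1 did. S1PR2, a sphingosine 1-phosphate receptor, read 7.38, 7.13 and 7.16 on the arrays labelled TRIB3-shRNA and 7.003, 6.75 and 7.02 on the control arrays. The groups did not overlap, and the difference was 0.30 (SE 0.14, 95% interval -0.01 to 0.62). LPAR1, a lysophosphatidic acid receptor, read 4.89, 4.35 and 4.49 against 4.57, 4.29 and 4.48, with overlap. All 6 values lay below the median gene of their array, and the difference was 0.13 (SE 0.17, 95% interval -0.25 to 0.51). The other feature of LPAR1 differed by 0.12. SPHK1, the inducible sphingosine kinase, read 6.06, 5.76 and 5.87 against 5.81, 5.39 and 5.72. Its groups overlapped, with a difference of 0.26 (SE 0.15, 95% interval -0.09 to 0.61).

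Of the 8 genes, 2 were called at a Benjamini-Hochberg adjusted p of 0.05 in limma, which was fitted over all genes. PLPP2 was called higher and PLPP1 lower. PLPP2 was selected on this same contrast, so its call, here and in other settings, is no test of its difference. Over all genes tested the share called was 9.64%, made up of 3.25% higher and 6.39% lower, and nothing is read from the set's count because the contrast was known when the genes were chosen. The groups did not overlap for 4 of the 8 (PLPP1, PLPP2, PLPP6 and S1PR2), against 32.0% of all genes. The median difference of the 8 was 0.08 on the log2 scale and that of all genes 0.04. PLPP1 lost its call under 9 of 16, with differences from -0.61 to -0.41, among them quantile normalization (-0.47), centring on the 75th percentile (-0.46) and each of 4 fits with an array left out. Those 4 fits were without TRIB3-shRNA replicate 1 (-0.61) or 2 (-0.57) and without Control-shRNA replicate 1 (-0.56) or 2 (-0.55). PLPP6 was called only without TRIB3-shRNA replicate 3 (-0.73) and without both arrays numbered 3 (-0.77).

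**Figure D2:**
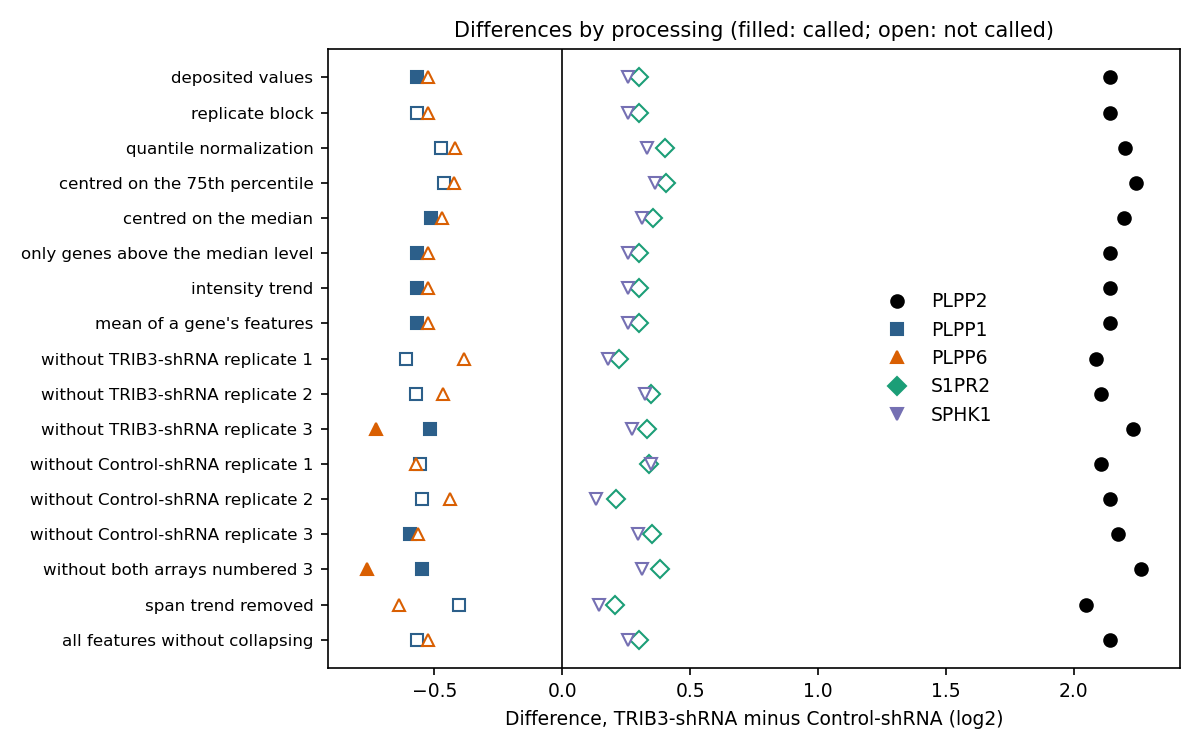
Difference between groups (log2, x axis) of PLPP2, PLPP1, PLPP6, S1PR2 and SPHK1 under the deposited values and 16 alternatives (y axis); filled symbols mark calls at an adjusted p of 0.05. PLPP2 stays between 2.05 and 2.26 and PLPP1 between -0.61 and -0.41, the latter called in some settings.

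The remaining relatives, PLPP and PLPPR genes with further LPAR and S1PR receptors, were listed with the earlier results of these data known. Of 17 other relatives listed, 13 were measured. Of these, 1 rose and 12 were not called, or 7.69% called against 9.64% of all genes, and their median difference was 0.13. Of the 13, 6 lay below the 25th percentile on all 6 arrays. Whether a difference is harder to see at such levels was not tested, and the groups of PLPPR4, among these 6, did not overlap. The gene that rose was PLPP7, a relative at the nuclear envelope thought to lack phosphatase activity. It read 5.72, 5.62 and 5.72 against 5.28, 5.08 and 5.22, a difference of 0.49 (SE 0.12, limma adjusted p = 0.0402). PLPP7 lost its call under 8 of 15 alternatives, with adjusted p from 0.0235 to 0.166. PLPP4 differed by 0.05 (adjusted p = 0.865).

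Of the PLPPR proteins, membrane relatives without the catalytic residues and best known from neurons, PLPPR3 came closest to a call. It read 6.13, 6.12 and 5.73 against 5.51, 5.54 and 5.59, a difference of 0.45 (SE 0.14, limma adjusted p = 0.0825). PLPPR2 differed by -0.04 (adjusted p = 0.892). PLPPR1, PLPPR4 and PLPPR5 lay below the 25th percentile of all 6 arrays, and their differences of -0.09, 0.31 and 0.28 did not pass the test.

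Among the other receptors, LPAR3 had the largest difference, 0.52 (SE 0.20, limma adjusted p = 0.129). Its arrays labelled TRIB3-shRNA read 4.52, 4.42 and 4.71 and its control arrays 4.36, 4.14 and 3.58, so the groups did not overlap but control replicate 3 stood well below the others. LPAR4, LPAR6 and S1PR1 lay below the 25th percentile of every array, with differences of 0.01, 0.13 and 0.02. S1PR4 differed by 0.33 (adjusted p = 0.309) and S1PR5 by less than 0.01 in size (-0.00097, adjusted p = 0.996). The 95% interval of S1PR5 ran from -0.29 to 0.29.

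**Figure D3:**
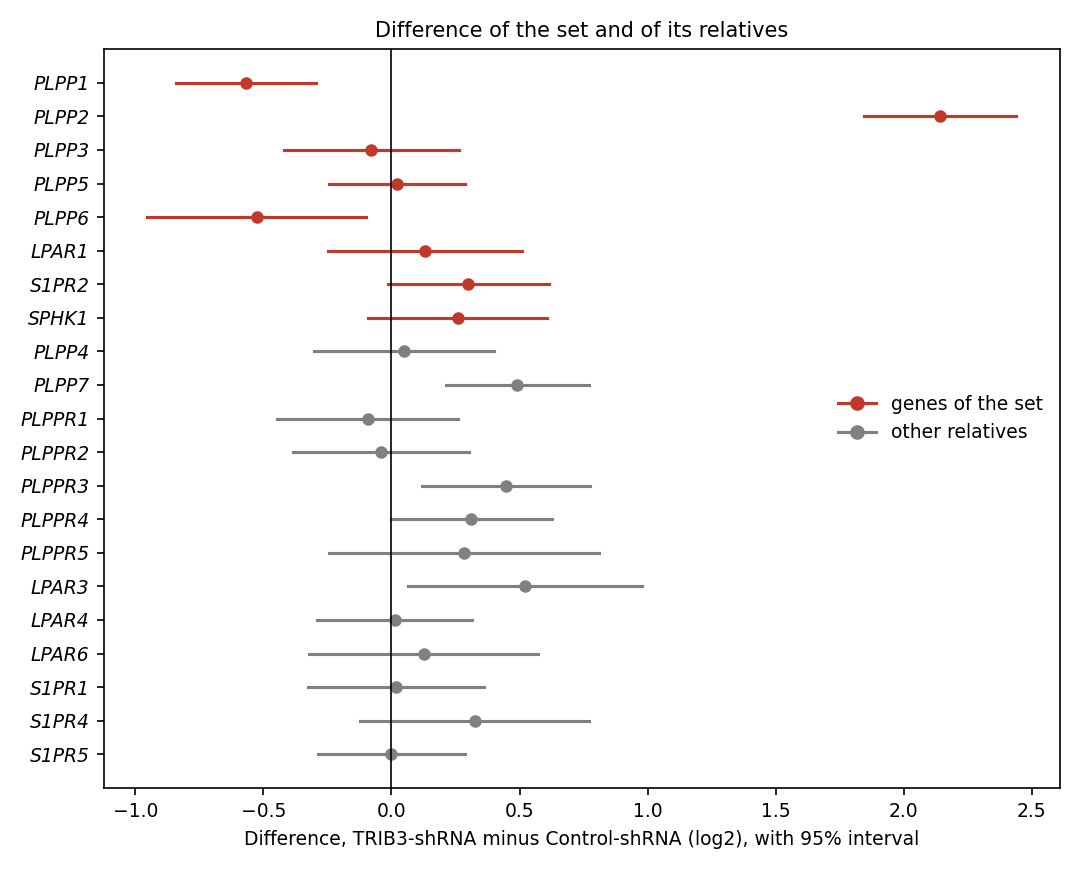
Difference between groups (log2, TRIB3-shRNA minus Control-shRNA) with its 95% interval from limma for the 8 genes of the set (red) and 13 other relatives (grey). PLPP2 lies at 2.14, and the others run from -0.57 (PLPP1) to 0.52 (LPAR3).

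Genes that make, move or break down the substrates of the phosphatases were listed with the earlier results of these data known. Of 14 listed genes of sphingosine 1-phosphate turnover and transport, 11 were measured. Of these, 1 rose and 10 were not called, or 9.09% called against 9.64% of all genes. Their median difference was 0.01 and that of all genes 0.04. CERK, the kinase that makes ceramide 1-phosphate, rose by 0.67 (SE 0.12, limma adjusted p = 0.0136). It read 8.52, 8.50 and 8.55 against 7.87, 7.75 and 7.93, and 4 of 16 alternatives ended its call, over an adjusted p range of 0.00506 to 0.0782. The lyase SGPL1 (-0.12), the phosphatase SGPP1 (-0.15) and the exporter SPNS2 (0.11) had adjusted p from 0.527 to 0.643. Closest to a call, both without overlap, were ASAH1 (-0.50, limma adjusted p = 0.0543) and ASAH2 (0.58, adjusted p = 0.0566). ASAH2 lay below the 25th percentile on all 6 arrays.

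Of 26 listed genes of ceramide and sphingomyelin synthesis, only 14 were measured. Of these, 2 rose, 1 fell and 11 were not called, or 21.4% called against 9.64% of all genes, with a median of -0.12. KDSR, the reductase of an early step of sphingoid base synthesis, rose by 1.02 (SE 0.12, limma adjusted p = 0.0031) and kept its call under all 16 alternatives. It read 8.78, 8.70 and 8.84 against 7.82, 7.73 and 7.71. KDSR lies in a run of chromosome 18 genes from MALT1 to PARD6G, found earlier in these data, whose 56 other measured genes had a median of 0.26, with 14 called higher and 0 lower. ORMDL3, which restrains the first enzyme of the pathway, rose by 0.45 (SE 0.12, adjusted p = 0.0497). UGT8, which adds galactose to ceramide, fell, with a difference of -0.82 (SE 0.20, limma adjusted p = 0.0361). ORMDL3 lost its call under 8 and UGT8 under 6 of 16 alternatives, with adjusted p up to 0.182 and 0.145 and down to 0.0212 and 0.00885.

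Of 17 listed genes of lysophosphatidic acid production, only 7 were measured. Of these, 1 fell and 6 were not called, or 14.3% called against 9.64% of all genes, with a median of 0.10. AGK, a mitochondrial kinase that makes lysophosphatidic acid from monoacylglycerol, fell 2.24-fold, a log2 difference of -1.16 (SE 0.13, limma adjusted p = 0.00295). It read 7.22, 7.13 and 7.40 against 8.51, 8.41 and 8.32 and kept its call under all 16 alternatives. AGK lies in a run of chromosome 7 genes from ZP3 to DYNC2I1, also found earlier, whose 370 other measured genes had a median of -0.26, with 4 called higher and 128 lower. ENPP2, which encodes autotaxin, the main source of extracellular lysophosphatidic acid, differed by 0.38 (adjusted p = 0.244) and lay below the 25th percentile of 5 of the 6 arrays.

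Of 42 listed genes of phosphatidic acid and diacylglycerol turnover, only 18 were measured. Of these, 1 rose, 2 fell and 15 were not called, or 16.7% called against 9.64% of all genes, with a median of -0.11. ABHD6, a lipase of monoacylglycerol and lysophospholipids, rose by 0.47 (SE 0.12, limma adjusted p = 0.0423). The acyltransferases LPCAT2 (-0.79, SE 0.21, adjusted p = 0.04996) and LCLAT1 (-0.63, SE 0.17, adjusted p = 0.0487) fell, LPCAT2 just inside the threshold. ABHD6, LPCAT2 and LCLAT1 lost their calls under 9, 8 and 11 of 16 alternatives, with adjusted p up to 0.17, 0.178 and 0.174 and down to 0.0179, 0.00985 and 0.0151. The lipins LPIN1 (-0.22), LPIN2 (-0.25) and LPIN3 (0.04), soluble phosphatidic acid phosphatases, did not pass the test, nor did phospholipase D2, encoded by PLD2 (-0.22). CDS1 had the largest difference of the list in size, -0.84, but its groups overlapped and it was not called (limma adjusted p = 0.0711). MBOAT7 differed by 0.47 without overlap (adjusted p = 0.1135). Also without overlap and not called, in the other direction, were CDS2 (-0.33, adjusted p = 0.1075), PNPLA3 (-0.20) and PLD2.

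Downstream of the receptors, 18 of 26 listed serum response and YAP target genes, which lysophospholipids can induce, were measured. Of these, 0 passed limma's test in either direction, with a median of -0.08. At an unadjusted p of 0.05 in limma, 2 of them were higher and 3 lower, beside 1887 higher and 2396 lower of all 14884 genes. The count of 0 calls at the adjusted p was not stable. Other settings called up to 2 higher (with an intensity trend and without both arrays numbered 3). Up to 2 were called lower (without TRIB3-shRNA replicate 3, without both arrays numbered 3 and among genes above the median level). CRIM1 had the largest difference of the 18 in size and came closest to a call, at -0.59 without overlap (limma adjusted p = 0.052). CCN2 (-0.36, adjusted p = 0.0916), EGR1 (-0.40, adjusted p = 0.108) and SRF (0.44, adjusted p = 0.0533) were also among the 18. All lists, relatives included, named 164 genes, of which 89 were measured. Of these 89, 7 rose and 4 fell, or 12.4% against the 9.64% of all genes.

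Genes with a pattern like that of PLPP2 were ranked by the root mean square distance between values centred on each gene's mean, over the 6 arrays and among 13040 other protein-coding and long non-coding genes. The nearest was HSD11B2, which inactivates cortisol, at a distance of 0.16 on the log2 scale. KRT20, a keratin of differentiated intestinal epithelium, followed at 0.20, the membrane protein gene TMEM45B at 0.28, the hexokinase relative HKDC1 at 0.29 and the transcription factor gene FOXD1 at 0.29. The median distance of all genes ranked was 1.07. The measure favours genes with a difference of similar size, and these differed by 2.08, 2.27, 2.56, 1.61 and 1.93. The other feature of FOXD1 differed by 0.25, so its distance is that of the brighter feature.

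**Figure D4:**
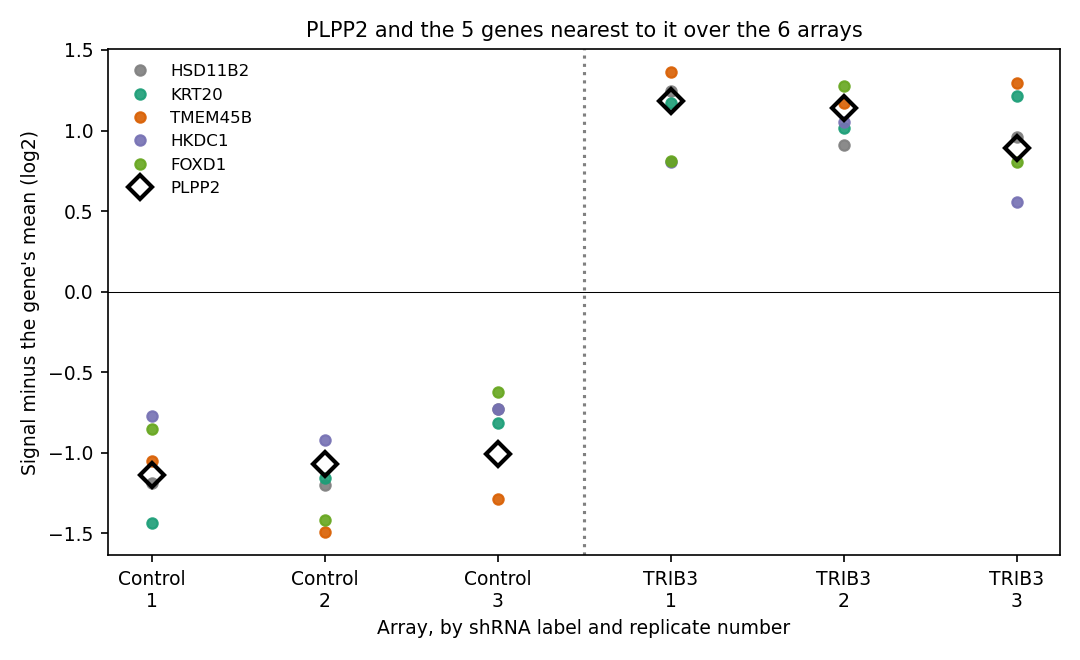
Signal of PLPP2 (open diamonds) and of the 5 genes nearest to it, each minus its own mean over the 6 arrays (log2, y axis), by array (x axis). All 6 genes lie below their mean on the 3 control arrays and above it on the 3 arrays labelled TRIB3-shRNA.

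The genes beside PLPP2 on chromosome 19 were read in RefSeq order. Only 2 measured genes lie between it and the end of the short arm. LINC01002, next to it, fell, with a difference of -0.78 (SE 0.16, limma adjusted p = 0.0229), and WASH5P differed by -0.35 (adjusted p = 0.132). Both belong to families with near-identical copies elsewhere, so their signal is uncertain. On the other side, SPMAP2 differed by 0.42 (adjusted p = 0.117), C2CD4C by 0.03 (adjusted p = 0.917) and SHC2 by -0.03 (adjusted p = 0.905). PLPP2 spans 10.4 kb of the genome and PLPP1 110.1 kb. With each array's trend against gene span removed, an alternative chosen after seeing earlier results, PLPP2 differed by 2.05 and PLPP1 by -0.41, the latter no longer called.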

How the data were processed

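Per the submitters' processing notes, the authors used RMA and Affymetrix Expression Console 1.4.1. RMA corrects background, equalises arrays by quantiles and summarises probes, and the deposited values have the range of a log2 scale. The build of the array annotation is not stated in the labels. Signal over background was not analysed here, and background correction could not be varied without scanner files.

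The annotation used named 1 gene symbol for 16098 of 53617 features, several for 0 and none for 37519. All 16098 matched RefSeq gene identifiers (GRCh38.p14), which served for names, spans and gene order. The brightest feature was kept for each of 779 genes with several, which left 14884 genes with no filter on level. Array medians ran from 5.62 to 5.70, and the number of arrays limits the precision. Over these genes the arrays separated by group. Medians were 5.62 to 5.67 on the arrays labelled TRIB3-shRNA and 5.69 to 5.70 on the control arrays. The 75th percentiles were 7.047 to 7.149 and 7.155 to 7.235, and the SDs 1.897 to 1.942 and 1.952 to 2.004. The part of this in the differences was not tested. The highest share of identical values in a pair of arrays was 0.127%.

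The test was limma's moderated test (version 3.58.1, R 4.3.3), two-sided, with lmFit and eBayes, no term but the group, and Benjamini-Hochberg adjustment over all genes. Intervals are at 95%. The genes of 1 list count in the totals over all lists and are not reported here otherwise. The main limma fit alone was tested on simulated data, with noise independent between arrays, and the other steps were not. The genes, lists and alternatives were chosen with earlier results of these data known. Named were all measured genes of the set and its relatives, up to 3 called genes of each list, the 5 genes nearest to PLPP2, up to 3 measured neighbours on each side of it, and TRIB3. Other genes named from the lists (SGPL1, SGPP1, SPNS2, ENPP2, LPIN1, LPIN2, LPIN3, PLD2, CCN2, EGR1, SRF and markers) were chosen for their role after their values were seen. ASAH1, ASAH2, CDS1, CDS2, CRIM1, MBOAT7 and PNPLA3 were named for their differences or for groups without overlap. Alternatives were a replicate block, fits with 1 array left out, other scalings, a filter on level, an intensity trend, the mean of features and all features. Removing the span trend (lowess, span 0.3) and leaving out both arrays numbered 3 were added after seeing earlier results.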

Additional observations from a re-analysis of the deposited data

How the results depend on the processing

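The replicate number was tried as a block although the labels do not say that it pairs arrays. Across genes, deviations of same-numbered arrays from their group means correlated at -0.20, -0.09 and -0.43 for numbers 1, 2 and 3, and 0 of the 3 pairs exceeded 0.1. Pairs with different numbers ran from -0.23 to 0.33. The highest were TRIB3-shRNA replicate 1 with Control-shRNA replicate 3 (0.33) and TRIB3-shRNA replicate 3 with Control-shRNA replicates 2 (0.29) and 1 (0.26). Deviations from a mean of 3 arrays depend on each other, so these values do not settle whether arrays were paired. With the replicate block 402 genes were called (1435 without it), 1 of the 8 genes of the set, and 1 gene of the pathway lists higher and 1 lower. Over all features 388 genes were called, and without both arrays numbered 3 the count was 3392. Leaving out an array gave 199 (without Control-shRNA replicate 2) to 2696 (without TRIB3-shRNA replicate 3). The set had 1 called gene, PLPP2, with quantile normalization, centring on the 75th percentile, the span trend removed and all features, and 1 to 3 when an array was left out. In place of 7 list genes called higher, there were 1 to 10 with an array left out and 12 without both arrays numbered 3. In place of 4 called lower, there were 1 to 10 with an array left out, 2 with median centring, 10 among genes above the median level, 7 with an intensity trend and 15 without both arrays numbered 3. Higher calls made up 33.7% of all calls, and 50.8% with arrays centred on the 75th percentile, where the median over all genes went from 0.04 to 0.14. Such centring adds the same amount to every difference, which moves this median. The cause of the shifts in the counts and shares was not tested. AGK, KDSR and TRIB3 kept their calls and directions under all 16 alternatives. The order of the genes' levels in control arrays, planned with quantile normalization, was not run, because probes of different genes are not on a common scale.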
